A study of Mus musculus with 34 samples.

Results

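Transition proteins and protamines are the small nuclear proteins that take the place of histones while the sperm head condenses. The genes followed here are Tnp1 and Tnp2, which encode the transition proteins, and Prm1, Prm2 and Prm3 of the protamine family. They were chosen by name, with earlier results of these data known. All 5 had a probe on the array, out of 33172 gene names measured, and where a gene had several probes, the one whose mean over the 34 arrays was highest was read.

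In the mouse, these genes are transcribed in round spermatids after meiosis, and the mRNAs are stored in protein complexes until the spermatids elongate. Transition proteins then displace the remaining histones and are themselves displaced by protamines, which pack the DNA tightly by their many arginines. A seminiferous tubule passes through a repeating cycle of stages named by Roman numerals, and each stage holds a fixed set of germ cell generations, so a tubule segment can hold early and late spermatids together.

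RNA came from C57BL6/j mice aged 6 to 8 weeks, in 17 groups of 2 arrays that the series describes as biological duplicates. Tubule segments were cut into 4 stage groups (I-III, IV-VI, VII-VIII, then IX-XII) and profiled from testes that were untreated, or that had received a lentivirus 5 days before dissection carrying either Venus, a fluorescent protein used as the control, or dnRARa, a dominant negative retinoic acid receptor alpha. The labels do not give the promoter of the virus or the cells that took it up, and the titles of the stage VII-VIII samples write VI-VIII where their source names write VII-VIII. The other groups were whole testes, Sertoli cells sorted from wild-type (WT) animals or from Nanos3 knockouts (N3KO), and WT Sertoli cells in primary culture given vehicle or retinoic acid (RA). RA was given for 24 hours, and its labelled dose is 1 mM, a unit that could not be checked. Sertoli cells are the somatic cells that support germ cells within the tubule; loss of Nanos3, a germ cell gene, leaves testes with few or no germ cells. The marker used for sorting is not given in the sources used here.

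Every value below is a log2 signal relative to the 75th percentile of its array, so that 1 unit is a factor of 2, and errors are the SD over 2 arrays or the standard error (SE) of a fitted difference. Between 54.89% and 74.42% of probes per array were well above background, a mark the scanner software sets against local background. Replicate arrays correlated at 0.9736 to 0.9957. Slides numbered 10 and scan days 5. In the untreated arm, stages I-III and IV-VI had a slide each and the other stage groups shared 1, whereas in the Venus and dnRARa arms each slide held all 4 stages of 1 replicate of 1 arm. Nanos3 was not well above background on either N3KO array and was so on both arrays of whole testes and of sorted WT cells.

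The promoters are shown because 3 of the 5 genes, as read by these probes, moved together in the comparison described below, and because 4 of them are neighbours. Tnp2, Prm3, Prm2 and Prm1 follow each other on chromosome 16 with no other annotated gene between them, and Tnp1 lies on chromosome 1. The 150 bases before each annotated start are given 5′ to 3′ on the minus strand of GRCm38.p6, from RefSeq, which held all 5. Capitals mark matches to 2 motifs searched on both strands: the cyclic AMP response element with 1 free base (TGACNTCA), the kind of site bound by the spermatid activator CREM, and a TATA box (TATAAA).
Tnp1, chr1:73015900-73016049: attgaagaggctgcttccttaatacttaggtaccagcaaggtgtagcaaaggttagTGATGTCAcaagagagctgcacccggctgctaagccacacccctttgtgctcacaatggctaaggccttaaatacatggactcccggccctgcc
Tnp2, chr16:10788656-10788805: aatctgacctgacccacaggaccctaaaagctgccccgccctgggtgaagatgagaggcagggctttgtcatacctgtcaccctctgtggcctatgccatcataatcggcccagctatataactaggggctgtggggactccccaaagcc
Prm1, chr16:10796824-10796973: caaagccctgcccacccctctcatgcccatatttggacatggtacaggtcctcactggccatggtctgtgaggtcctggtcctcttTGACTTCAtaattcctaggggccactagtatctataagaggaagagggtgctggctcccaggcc
Prm2, chr16:10792106-10792255: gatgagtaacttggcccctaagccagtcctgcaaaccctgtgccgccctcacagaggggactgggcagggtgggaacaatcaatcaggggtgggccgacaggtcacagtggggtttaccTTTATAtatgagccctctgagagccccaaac
Prm3, chr16:10790915-10791064: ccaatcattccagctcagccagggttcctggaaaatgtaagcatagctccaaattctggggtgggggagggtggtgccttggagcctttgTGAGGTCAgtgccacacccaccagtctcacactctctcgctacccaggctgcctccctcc

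The element with 1 free base was found in Tnp1, 87 to 94 bases before the start, in Prm1 at 57 to 64 bases and in Prm3 at 53 to 60 bases. Of all 32851 promoters searched over 250 bases, 7.49% hold it. No member holds the full element TGACGTCA, which 1.55% of promoters hold. The TATA box letters were found in Prm2 alone among the members, 26 to 31 bases before the start on the opposite strand, and in 12.4% of all promoters. These are matches of letters only.

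Over the stages of untreated tubules, Tnp2 had the widest course of the 5 genes, lowest in IV-VI and highest in IX-XII. Tnp1, Prm1 and Prm3 also changed with stage, over ranges of about a factor of 2, while Prm2 did not pass the test. In all, 4 of the 5 genes passed the limma F-test over the 4 stage groups at a Benjamini-Hochberg adjusted p under 0.05, where 65.8% of the 19341 genes tested did. In whole tubule segments, fewer spermatids and less RNA per spermatid cannot be told apart.

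Tnp2 encodes the less abundant and less conserved of the transition proteins. In untreated tubules it measured 6.02 and 6.10 in stages I-III, 4.46 and 3.56 in IV-VI, 5.65 and 5.99 in VII-VIII, and 6.999 and 6.91 in IX-XII. The arrays of IV-VI lay below those of every other stage group and the arrays of IX-XII above them, with no overlap. Its range of group means was 2.94, a factor of 7.7 (adjusted p = 4.13e-05, limma F-test). Tnp2 was the 1 member to pass limma's test from I-III to IV-VI, where 17.9% of genes passed, and fell by 2.05 (SE 0.34, adjusted p = 0.0022). It rose by 1.81 into VII-VIII (SE 0.34, adjusted p = 0.000903, limma) and by 1.14 into IX-XII (SE 0.34, 0.0143). Its return to I-III, of -0.90, missed the threshold (adjusted p = 0.0625, limma), as did all other members at that step, where 30.5% of genes passed. From IV-VI to VII-VIII 3 of 5 members rose, Tnp2, Tnp1 and Prm3, where 38.8% of genes passed and 20.6% rose, and from VII-VIII to IX-XII 2 of 5 did, Tnp2 and Prm1, where 46.6% passed. Of these steps, the one from VII-VIII to IX-XII lies within 1 slide, and the call for it ended without VII-VIII replicate 1 or IX-XII replicate 1 (adjusted p = 0.0521 to 0.0989). The steps to and from IV-VI cannot be told apart from the slide.

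Tnp1, the major transition protein, measured 7.99 and 7.96 in untreated I-III, 7.53 and 7.10 in IV-VI, 8.14 and 8.22 in VII-VIII, and 8.15 and 8.68 in IX-XII. The IV-VI arrays were the lowest, those of I-III came next, and the later stage groups overlapped above them. Its range of means was 1.10 (adjusted p = 0.0227, limma F-test), and it rose by 0.86 from IV-VI to VII-VIII (SE 0.29, adjusted p = 0.0317, limma). The change over stages was no longer called without IV-VI replicate 2 or IX-XII replicate 2 (adjusted p = 0.0602 to 0.181), and the step was lost without IV-VI replicate 2 or either VII-VIII array (0.0893 to 0.2).

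Prm1, the protamine found across mammals, measured 7.84 and 7.91 in untreated I-III, 7.24 on both arrays of IV-VI, 7.29 and 7.58 in VII-VIII, and 7.93 and 8.61 in IX-XII. The IX-XII arrays lay above all others and the IV-VI arrays below all others. Its range was 1.03 (adjusted p = 0.00806, limma F-test) and its rise from VII-VIII to IX-XII, within 1 slide, was 0.84 (SE 0.25, adjusted p = 0.0124, limma). That rise was lost without VII-VIII replicate 1 or IX-XII replicate 2 (adjusted p = 0.0967 and 0.151), and the change over stages depended on the probe, as set out below.

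Prm2, which is made as a precursor and trimmed on the DNA, measured 7.82 and 7.71 in untreated I-III, 7.87 on both arrays of IV-VI, 7.62 and 7.85 in VII-VIII, and 7.85 and 8.27 in IX-XII. The IV-VI arrays lay above those of I-III and VII-VIII and overlapped those of IX-XII. Its range was 0.32 (adjusted p = 0.51, limma F-test). Prm3 encodes a small acidic protein that, unlike the other protamines, does not resemble a DNA-packing protein. It measured 3.34 and 3.16 in I-III, 1.94 and 2.86 in IV-VI, 3.50 and 3.30 in VII-VIII, and 3.13 and 4.07 in IX-XII. Here too the IV-VI arrays were the lowest. Its step from I-III to IV-VI, of -0.85 (SE 0.28), missed the threshold (adjusted p = 0.0504, limma) but passed with the replicate number as a block within each arm (0.0358). The range of Prm3 was 1.20 (adjusted p = 0.00794, limma F-test), with a rise of 0.995 from IV-VI to VII-VIII (SE 0.28, adjusted p = 0.0117, limma). The change over stages was lost without IV-VI replicate 1 (adjusted p = 0.142), and the rise without that array or VII-VIII replicate 1 (0.0744 to 0.164). With the spread taken only from the groups compared, Tnp2 alone passed over the untreated stages (adjusted p = 0.00999, limma F-test), and no step of a member passed between 2 untreated stage groups.

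**Figure D1:**
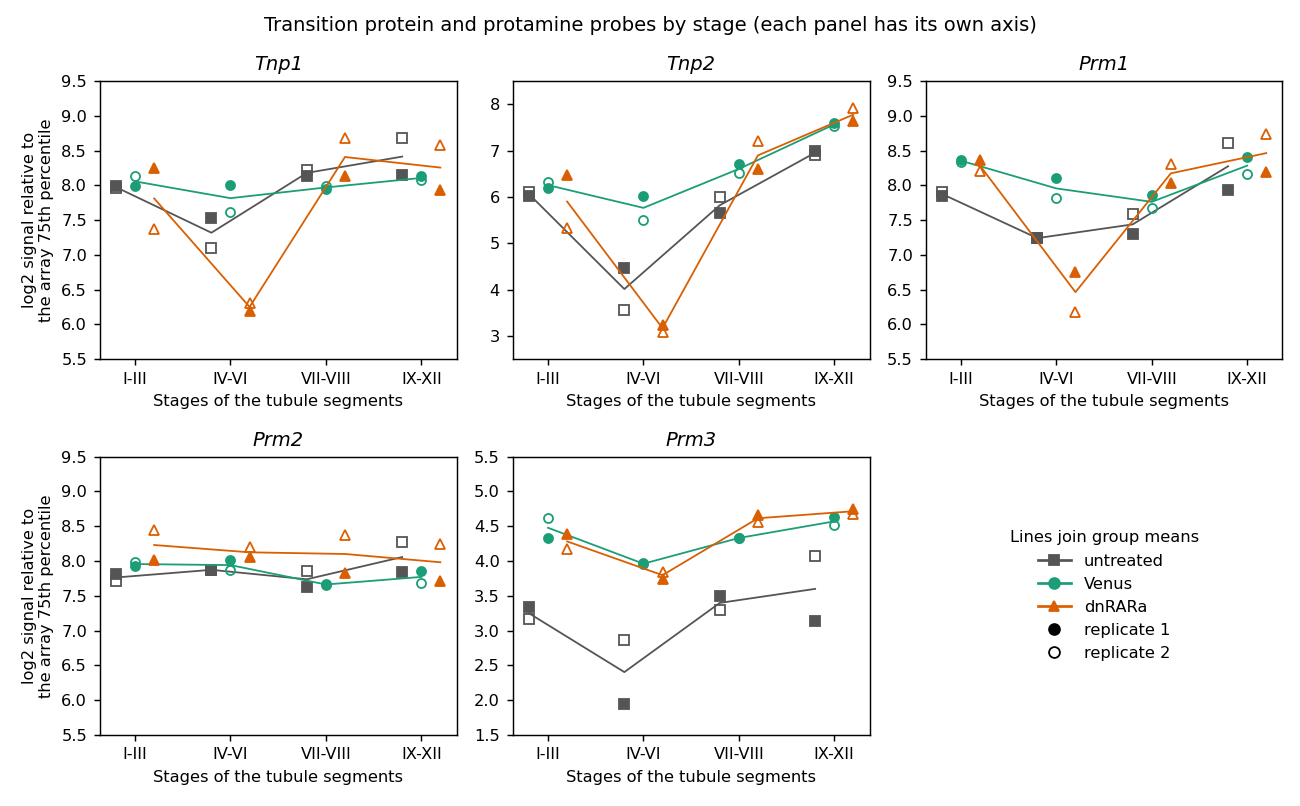
Each panel plots the log2 signal of 1 gene, relative to the 75th percentile of its array, against the stages of the tubule segments, with 1 point per array and lines through the means of untreated, Venus and dnRARa tubules. In IV-VI the dnRARa arrays of Tnp2 read 3.24 and 3.09 and those of Venus 6.02 and 5.51, while the Prm2 arrays lie between 7.62 and 8.44 at all stages.

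In Venus tubules only Tnp2 passed the F-test, 1 of 5 genes against 51.8% of the 23408 genes tested, with a range of 1.80 (adjusted p = 0.00295, limma F-test). With the scan day of the injected arms as a block, which is also their replicate number, Prm3 passed as well (adjusted p = 0.00888, limma F-test). Tnp2 measured 6.19 and 6.32 in I-III, 6.02 and 5.51 in IV-VI, 6.70 and 6.51 in VII-VIII, and 7.60 and 7.53 in IX-XII. The IX-XII arrays were again the highest, but the IV-VI arrays lay just below those of I-III. Tnp2, again the 1 member called, rose by 0.96 from VII-VIII to IX-XII (SE 0.34, adjusted p = 0.0425, limma), where 34.5% of genes passed, and fell by 1.31 into I-III (SE 0.34, 0.00773), where 36.2% did. The rise was lost without any of 12 of the 24 arrays (adjusted p = 0.0505 to 0.187). No member passed from IV-VI to VII-VIII, where 31% of genes did.

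From I-III to IV-VI in Venus tubules none of the 22452 genes tested passed limma's test after adjustment, and 1703 had an unadjusted p under 0.05. For Tnp2 that step was -0.49 (SE 0.34). Ranges over the Venus stages were 0.29 for Tnp1, 0.59 for Prm1, 0.30 for Prm2 and 0.61 for Prm3, with adjusted p from 0.155 to 0.848 (limma F-test). The Venus arrays of Tnp1 ran from 7.62 to 8.13, those of Prm1 from 7.67 to 8.41, those of Prm2 from 7.66 to 8.01 and those of Prm3 from 3.96 to 4.63. Stage groups of these genes were separated by less than 1 unit throughout.

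In dnRARa tubules the dip at IV-VI was deep. Again 4 of 5 genes changed over stages, where 52.8% of the 23246 genes tested did, and Prm2 was again the exception. Tnp2 measured 6.48 and 5.32 in I-III, 3.24 and 3.09 in IV-VI, 6.59 and 7.20 in VII-VIII, and 7.64 and 7.91 in IX-XII. Both IV-VI arrays lay more than 2 units below every other array of the arm. The range of means was 4.61, a factor of 24.4 (adjusted p = 8.68e-07, limma F-test). From I-III to IV-VI 3 of 5 members fell, Tnp2, Tnp1 and Prm1, where 8.03% of genes passed limma's test and 4.18% fell. From IV-VI to VII-VIII 4 of 5 rose, these and Prm3, where 28.9% passed and 16% rose. Tnp2 fell by 2.73 into IV-VI (SE 0.34, adjusted p = 0.000797, limma) and rose by 3.73 into VII-VIII (SE 0.34, 6.79e-06), 13.3-fold. No member passed from VII-VIII to IX-XII, where 36.9% of genes did, and Tnp2 alone did from IX-XII to I-III, where 31.2% did, falling by 1.88 (SE 0.34, adjusted p = 0.000793, limma).

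Tnp1 in dnRARa tubules measured 8.25 and 7.37 in I-III, 6.19 and 6.31 in IV-VI, 8.13 and 8.68 in VII-VIII, and 7.93 and 8.58 in IX-XII. Its IV-VI arrays were likewise the lowest by more than 1 unit. It fell by 1.56 into IV-VI (SE 0.29, adjusted p = 0.00588, limma) and rose by 2.16 into VII-VIII (SE 0.29, 0.000107), the fall being lost without I-III replicate 1 or IV-VI replicate 2 (adjusted p = 0.0572 to 0.0772). Prm1 measured 8.36 and 8.20 in I-III, 6.75 and 6.18 in IV-VI, 8.04 and 8.31 in VII-VIII, and 8.19 and 8.74 in IX-XII, where replicate 2 was marked as saturated. Its IV-VI arrays stood below all others as well. Prm1 fell by 1.82 into IV-VI (SE 0.25, adjusted p = 0.00111, limma) and rose by 1.71 into VII-VIII (SE 0.25, 0.000167).

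Prm3 in dnRARa tubules measured 4.39 and 4.18 in I-III, 3.75 and 3.85 in IV-VI, 4.67 and 4.57 in VII-VIII, and 4.75 and 4.68 in IX-XII. The order of its stages was that of Tnp2, over a range of 0.92 (adjusted p = 0.0435, limma F-test). That call ended without any of 20 of the 24 arrays (adjusted p = 0.0531 to 0.17), so Prm3 sat at the edge of the threshold. Its rise of 0.82 from IV-VI to VII-VIII (SE 0.28, adjusted p = 0.0406, limma) was lost without any of 12 (0.0518 to 0.154). Prm2 measured 8.02 and 8.44 in I-III, 8.05 and 8.20 in IV-VI, 7.83 and 8.38 in VII-VIII, and 7.72 and 8.25 in IX-XII, a range of means of 0.25 (adjusted p = 0.806, limma F-test). In every stage replicate 2 was the higher of its dnRARa arrays. With the spread taken only from the groups compared, no fall into IV-VI passed (adjusted p = 0.257 to 0.284, limma), and without the slide of replicate 2 the fall of Prm1 was lost (0.0506).

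These falls and rises of the injected arms lie within slides, where the unscaled processed intensity can be set side by side. The highest of the 4 stages exceeded the lowest for Tnp2 by 26.7-fold and 29.3-fold on the dnRARa slides and by 3.09-fold and 4.39-fold on the Venus slides. For Tnp1 the ratios were 4.24 and 4.99 with dnRARa and 1.16 and 1.49 with Venus, and for Prm1 they were 3.45 and at least 6.11, its highest array there being saturated, against 1.28 and 1.40. Thus on each dnRARa slide the spread over stages was wider than on either Venus slide for these 3 genes, as read by these probes. For Prm1 it depended on the probe. Read by A_52_P533280 the ratios were 1.064 and 1.367 with dnRARa and 1.098 and 1.079 with Venus. Read by A_52_P533287 they were 1.32 and 1.391 against 1.198 and 1.083. Prm2 varied by 1.07-fold to 1.11-fold on all 4 slides, at 39.8% to 74.1% of the intensity at which the scanner saturates. The part that high intensity plays in its flat course was not tested.

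The comparison of dnRARa with Venus asks what a block of retinoic acid receptor signalling does to these transcripts. In stages IV-VI Tnp2, Tnp1 and Prm1 were lower with dnRARa, and in the other 3 stage groups no member differed. At IV-VI 3 of the 5 genes passed limma's test, all lower, where 2.16% of the 22224 genes tested passed and 1.19% were lower. The median difference of the members was -1.49, beside -0.03 over all genes tested. That median is the value of Prm1 itself, and with either other probe of Prm1 it is -0.16, the value of Prm3. No member passed in I-III, where 0.00903% of genes did, in VII-VIII (1.23%) or in IX-XII (3.76%); the smallest unadjusted p of a member in those stages was 0.0611, for Prm2 in VII-VIII.

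Tnp2 averaged 3.17 ± 0.11 in dnRARa and 5.76 ± 0.36 in Venus tubules of IV-VI (SD, n = 2 each), a difference of -2.60 (SE 0.34), or 6.05-fold lower (adjusted p = 0.00398, limma). Tnp1 averaged 6.25 ± 0.08 against 7.82 ± 0.28, a difference of -1.56 (SE 0.29), or 2.96-fold lower (adjusted p = 0.02, limma). Prm1 averaged 6.46 ± 0.40 against 7.96 ± 0.20, a difference of -1.49 (SE 0.25), or 2.81-fold lower (adjusted p = 0.0121, limma). In each of the 3 genes both dnRARa arrays lay below both Venus arrays. Paired by replicate number, which is also the scan day in these arms, the differences were -2.77 and -2.42 for Tnp2, -1.82 and -1.31 for Tnp1, and -1.35 and -1.63 for Prm1.

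Prm2 and Prm3 did not pass at IV-VI. Prm2 differed by 0.18 (SE 0.22, adjusted p = 0.743, limma) and Prm3 by -0.16 (SE 0.28, 0.835). In IV-VI the untreated arrays of Tnp2, at 4.46 and 3.56, lay between those of dnRARa and Venus without overlapping either, and those of Tnp1, at 7.53 and 7.10, likewise. For Prm1 both untreated arrays read 7.24, above dnRARa and below Venus.

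The calls at IV-VI rest on the spread shared over 12 tubule groups: with only the 4 arrays compared, all 3 were lost (adjusted p = 0.369). With normexp background correction, or without the slide of dnRARa replicate 2, only Tnp2 passed (adjusted p = 0.0108 and 0.0235); Tnp1 was lost without any of the 4 IV-VI arrays of these arms (0.0567 to 0.181) and Prm1 without 3 of them, all but dnRARa replicate 1 (0.0524 to 0.193). The arm and the slide cannot be told apart.

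**Figure D2:**
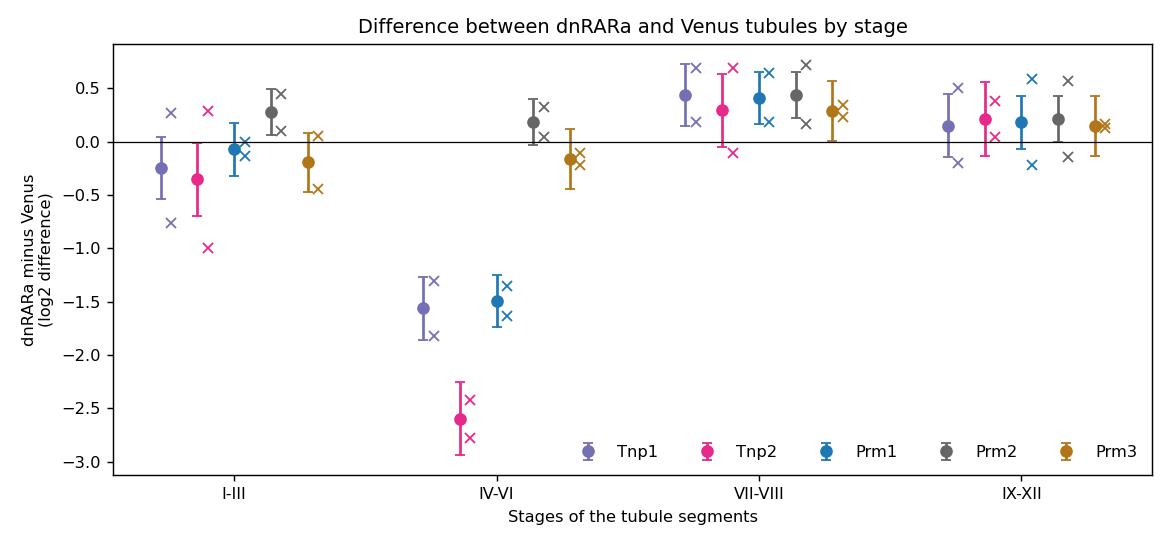
The plot gives dnRARa minus Venus on the log2 scale for each gene (colours) in each stage group; dots are fitted differences with SE bars, and crosses are the differences of the arrays with the same replicate number. At IV-VI Tnp2 lies at -2.60, Tnp1 at -1.56 and Prm1 at -1.49, whereas Prm2 and Prm3 lie at 0.18 and -0.16.

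Averaged over the 4 stages, Tnp2 alone was lower with dnRARa, by -0.61 (SE 0.17, adjusted p = 0.0349, limma), 1 of 5 genes where 10.7% of the 23937 genes tested passed and 3.38% were lower. Prm2 was the member with the next smallest p, at 0.28 higher (SE 0.11, adjusted p = 0.124, limma). The difference of Tnp2 depended on stage: its range over stages was 2.89, and the interaction passed (adjusted p = 0.0317, limma F-test) where 0.51% of the 23937 genes did. Prm1 (range 1.90, adjusted p = 0.0589) and Tnp1 (range 2.001, 0.118) missed the threshold of that limma F-test. The fit took arrays as independent, although each slide held all 4 stages of 1 replicate of 1 arm. With slide as a random block no member passed for the average, while the interaction called 2. Each Tnp2 call was lost without any one of 12 arrays. For the average these were 7 Venus arrays, all but IV-VI replicate 2, and 5 dnRARa arrays (I-III and IV-VI replicate 2, VII-VIII replicate 1, both of IX-XII; adjusted p = 0.0538 to 0.0836). For the interaction they were all 8 Venus arrays and both dnRARa arrays of IV-VI and of IX-XII (0.05 to 0.163), and with the replicate number as a block within each arm it was lost as well (adjusted p = 0.0537, limma).

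The result for Prm1 rests on 1 of its 3 probes. The probe A_51_P162984, used so far, had the highest mean signal, and A_52_P533280 and A_52_P533287 carry the same transcript accession. With them the dnRARa difference at IV-VI was 0.25 (SE 0.36, adjusted p = 0.803, limma) and 0.11 (SE 0.26, 0.886), so the sign turned. The change of Prm1 over stages was lost with them too, in untreated tubules (adjusted p = 0.922 and 0.377, limma F-test) and in dnRARa tubules (0.931 and 0.484). At IV-VI A_52_P533280 read 7.11 and 7.45 with dnRARa and 7.09 and 6.98 with Venus. A_52_P533287 read 6.90 and 7.12 with dnRARa and 6.88 and 6.92 with Venus. On the slide of dnRARa replicate 2 both probes were lowest at IV-VI, with steps from I-III of -0.48 for A_52_P533280 and -0.63 for A_52_P533287, while on that of replicate 1 those steps were -0.04 and -0.29.

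Over the 4 stages of a slide, the intensity of these 2 probes varied by 1.06-fold to 1.39-fold. Over the 12 tubule group means the 3 probes of Prm1 correlated with each other at 0.16 to 0.27, which describes those means and is no test. The files give no positions for the probes, so the stretch of the Prm1 transcript that each reads is not known here.

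**Figure D3:**
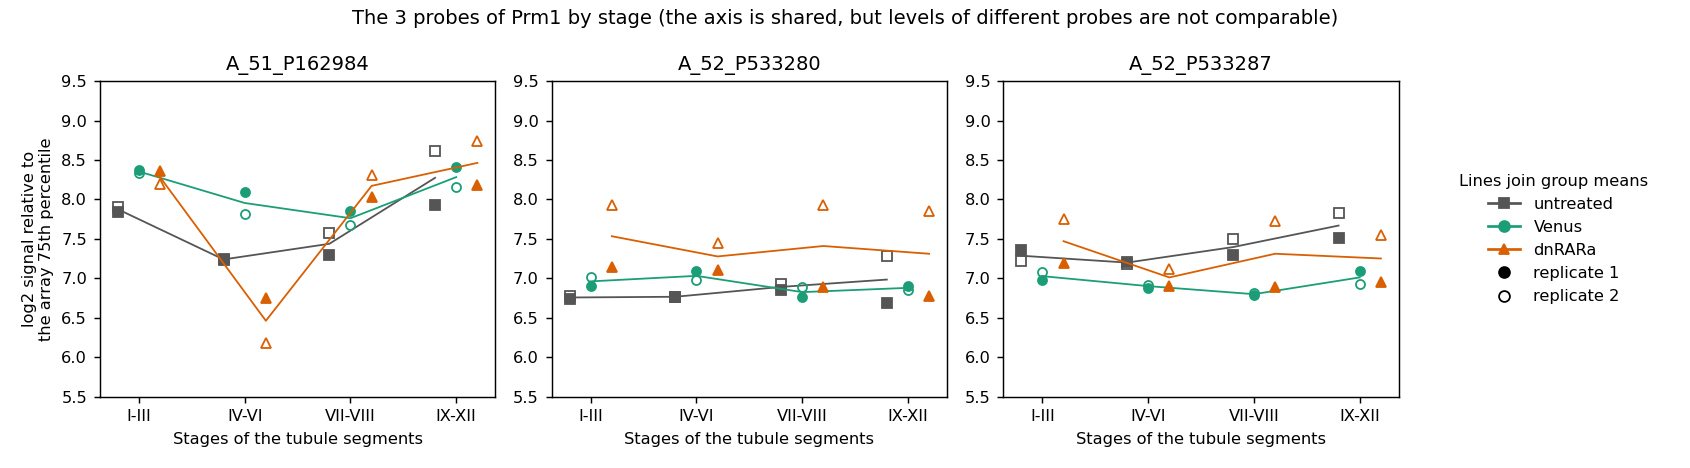
Each panel plots 1 of the 3 probes of Prm1 by stage, as log2 signal relative to the 75th percentile of the array, with 1 point per array and lines through the means of the 3 arms. In IV-VI the dnRARa arrays of A_51_P162984 read 6.75 and 6.18, below all others of that probe, while those of A_52_P533280 read 7.11 and 7.45.

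Genes that act around the histone-to-protamine exchange were set beside the members, by counts. Among testis histones, the variants that germ cells add to chromatin before protamines arrive, 6 of 9 changed with stage in untreated tubules, where 65.8% of all genes did, and 6 of 9 in dnRARa tubules, where 52.8% did. At IV-VI 1 of the 9 was lower with dnRARa: H2al2a, a partner of transition proteins in spermatid chromatin, by -0.84 (SE 0.16, adjusted p = 0.0195, limma). None of 13 genes of histone removal, 9 of spermatid transcription, 14 of mRNA storage and translation or 6 spermatid kinases passed there. Their median differences were -0.06, -0.09, -0.05 and 0.26.

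The smallest adjusted p in those 4 lists belonged to Piwil1, a partner of small RNAs in germ cells, at 0.71 higher (SE 0.18, adjusted p = 0.0637, limma). Tbpl1, a TATA-binding protein relative needed by spermatids, differed by -0.35 (SE 0.11, 0.124). Over stages, 7 of the 9 regulators of spermatid transcription changed in each of the 3 arms, where 65.8% of all genes did in untreated, 51.8% in Venus and 52.8% in dnRARa tubules. Among them Tbpl1 had a range of 1.39 over untreated stages (adjusted p = 8.88e-07, limma F-test) and Fhl5, the testis coactivator of CREM, of 2.17 (1.27e-05).

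Cell type markers were read in the same way. At IV-VI none of 7 round spermatid markers passed between dnRARa and Venus, with a median difference of 0.30 and array means of the list of 4.09 to 4.17 with dnRARa and 3.79 to 3.97 with Venus. Of 8 elongating spermatid markers 1 was lower, Fscn3, an actin-bundling protein of spermatids, by -0.89 (SE 0.17, adjusted p = 0.0196, limma); array means were 5.51 to 5.63 and 5.65 to 5.76. None of 7 spermatocyte, 5 spermatogonia, 8 Sertoli, 4 Leydig, 2 macrophage or 3 endothelial markers passed.

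Of 3 peritubular myoid markers, those of the contractile cells around the tubule, 1 was lower with dnRARa, Myh11 by -0.73 (SE 0.17, adjusted p = 0.0409, limma). The array means of that list were -0.10 to 0.00 with dnRARa and 0.50 to 0.56 with Venus, all 3 markers being well above background on every array. The part of these markers in the differences of Tnp2, Tnp1 and Prm1 was not tested.

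Between Venus and untreated tubules, over all stages, 3 of 5 members were higher in Venus and none lower, where 65.6% of the 23565 genes tested differed and 35.6% were higher. Prm3 was 1.17 higher (SE 0.14, adjusted p = 5.29e-06, limma), and its Venus arrays, from 3.96 to 4.63, overlapped the untreated arrays, from 1.94 to 4.07, only through IX-XII replicate 2. Tnp2 was 0.84 higher (SE 0.17, 0.000667) and Prm1 0.38 higher (SE 0.12, 0.0138), although Prm1 differed by -0.45 when read by A_52_P533287 (adjusted p = 0.00663, limma). Prm2 and Tnp1 differed by -0.03 and 0.02. The arms were on different slides scanned on different days, so injection and batch cannot be told apart.

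Outside the tubule segments the question was how far these spermatid transcripts are carried into Sertoli cell preparations. All 5 were lower in sorted WT cells than in whole testes, yet all were far above background in those cells, and they were far lower again in N3KO and in cultured cells. Tnp2 measured 7.41 and 7.38 in whole testes, 4.55 and 3.72 in sorted WT cells, -6.13 and -6.69 in N3KO cells, -6.76 and -6.51 in vehicle cultures, and -4.94 and -6.38 in RA cultures. It was well above background on 1 of the 6 arrays of the last 3 groups, RA replicate 1.

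Tnp1 measured 9.41 and 9.54 in whole testes, where both arrays were saturated, 7.88 and 6.995 in sorted WT cells, -3.62 and -3.75 in N3KO cells, -4.57 and -4.62 with vehicle, and -4.55 on both arrays with RA. Prm1 measured 8.95 and 9.12, then 7.09 and 6.45, then -2.99 and -2.49, then -2.44 and -2.72, and finally -2.66 and -2.55 in the same order of groups. For both genes, as read by these probes, whole testes, sorted WT cells and the remaining groups did not overlap, and every array was well above background. Prm1 read by A_52_P533280 was also well above background on every array of these groups. Read by A_52_P533287 it averaged -4.51 in N3KO cells, where 1 of 2 arrays was well above background. That probe averaged -8.883 with vehicle and -8.515 with RA, and no culture array was well above background.

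Prm2 measured 9.31 and 9.44 in whole testes, 8.17 and 7.65 in sorted WT cells, -4.80 and -4.12 in N3KO cells, -6.35 and -6.94 with vehicle, and -6.35 and -5.98 with RA. Prm3 measured 4.40 and 4.46, 1.63 and 1.12, -5.41 and -5.57, -6.98 and -7.56, and -8.45 and -7.42 in the same order. Prm2 was well above background on 1 of 2 arrays in each culture group, and Prm3 on none of the 4 culture arrays and 1 of the N3KO arrays. In all 5 genes sorted WT replicate 1 exceeded replicate 2.

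**Figure D4:**
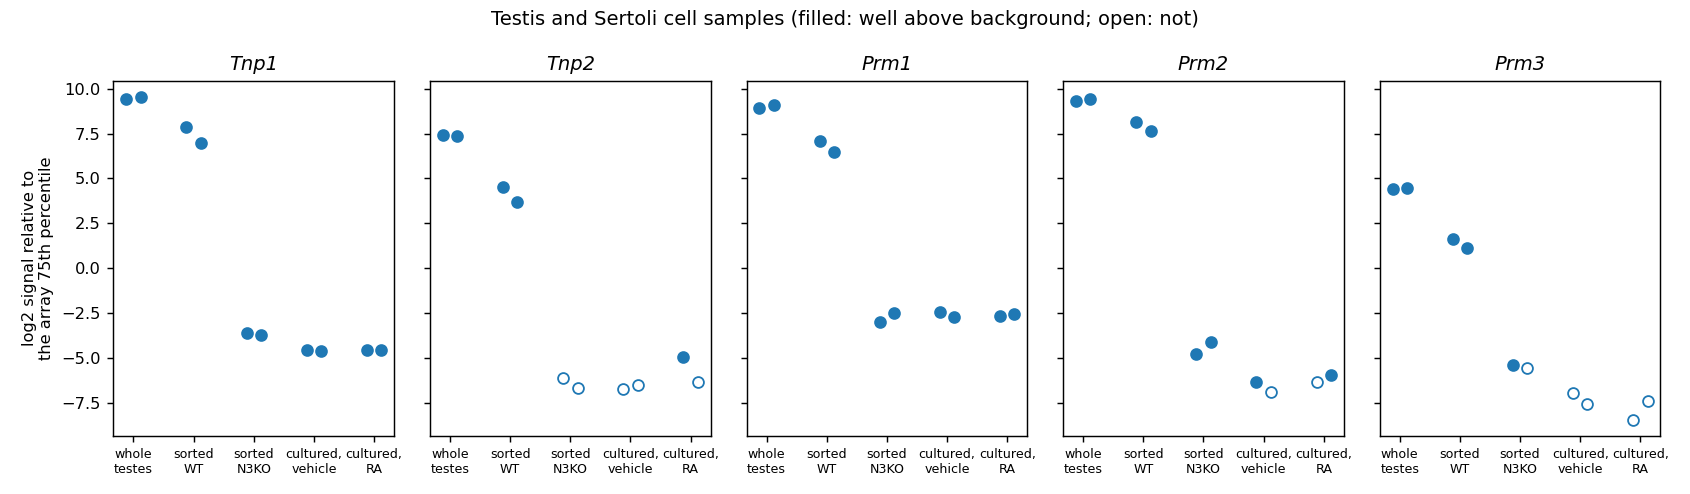
Each panel plots 1 gene's log2 signal relative to the 75th percentile of the array, with 1 point per array, in whole testes, sorted WT, sorted N3KO and cultured Sertoli cells; open points were not well above background. Sorted WT minus whole testes runs from -1.47 (Prm2) to -3.26 (Tnp2), and the arrays of the other groups lie between -8.45 and -2.44.

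Against whole testes, all 5 members passed limma's test as lower in sorted WT cells, where 78.2% of the 22734 genes tested passed and 40.5% were lower. The differences were -3.26 for Tnp2 (SE 0.49, adjusted p = 0.000677), -2.26 for Prm1 (SE 0.26, 0.000167), -1.47 for Prm2 (SE 0.32, 0.00424) and -3.06 for Prm3 (SE 0.37, 0.000212), by limma. Tnp1 was at least 4.1-fold lower, a bound because its testis arrays were saturated (adjusted p = 0.000332, limma). The call for Prm1 was lost when it was read by A_52_P533280 (-0.35, adjusted p = 0.279, limma) or A_52_P533287 (-0.73, 0.402).

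Other germ cell lists stood lower too in sorted WT cells: 8 of 8 elongating spermatid markers (median -3.12), 7 of 7 round spermatid markers (median -2.79) and 6 of 7 spermatocyte markers (median -3.72), beside a median of -2.26 for the members and -0.07 for all genes. All 8 Sertoli markers were well above background in sorted WT cells, and 4 of them were higher than in testes. So were all 4 Leydig markers, by a median of 4.19, with array means of 6.12 to 6.36 against 1.98 to 2.02. The part of other cell types in the sorted preparations was not tested further.

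From sorted WT to sorted N3KO cells, all 5 members were lower again, where 45.2% of the 21307 genes tested passed limma's test and 21.9% were lower. Tnp2 and Prm3 entered this test through the sorted WT arrays alone, so the direction of their calls follows in part from the detection filter. The difference was -11.12 for Tnp1 (SE 0.27, adjusted p = 4.58e-07, limma), -9.51 for Prm1 (SE 0.26, 5.56e-07), -12.37 for Prm2 (SE 0.32, 4.76e-07) and -6.87 for Prm3 (SE 0.37, 8.11e-06). On the linear scale Tnp1 was 2230-fold, Prm1 726-fold, Prm2 5300-fold and Prm3 117-fold lower, with 1 of the 2 N3KO arrays of Prm3 well above background. The size for Prm1 depended on the probe and on other settings, and over all of these its difference ran from -13.105 to -8.396. The value -13.105 came from A_52_P533287, which was well above background on 1 of the 2 N3KO arrays. Tnp2 was at least 856-fold lower, a bound against the dimmest signal called well above background on the N3KO arrays (adjusted p = 4.11e-06, limma). The median difference was -10.54 for the members, -8.76 for elongating and -6.10 for round spermatid markers, and 0.06 over all genes. N3KO and WT cells were on different slides of 1 scan day, so the slide and the genotype cannot be told apart.

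Cultured vehicle cells were compared with sorted WT cells in the same way. All 5 members were lower, where 73.4% of the 22246 genes tested passed and 42.6% were lower. Tnp2, Prm2 and Prm3 entered this test through the sorted WT arrays alone, so the direction of their calls follows in part from the detection filter. Tnp2 was at least 1640-fold and Prm3 at least 249-fold lower (adjusted p = 3.02e-06 and 2.26e-06, limma). Prm1, Prm2 and Tnp1 differed by -9.35, -14.55 and -12.04 (SE 0.26, 0.32 and 0.27; adjusted p = 4.88e-07, 2.53e-07 and 2.53e-07, limma), and for Prm2 1 of the 2 vehicle arrays was well above background. Here too the size for Prm1 depended on the probe and on other settings, and over all of these its difference ran from -17.478 to -8.428. The value -17.478 came from A_52_P533287, which was well above background on no vehicle array, so it is not a measured size. Culture and slide cannot be told apart.

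The cultures held other germ cell transcripts. All 7 spermatocyte markers were well above background on both vehicle arrays, at list means of -0.54 and -0.52, whereas 1 of 7 was so on both N3KO arrays, at -6.50 and -6.41. Of the 7 round spermatid markers 5 were so on both vehicle arrays and 2 on both N3KO arrays. Of the 8 elongating spermatid markers 2 were well above background on both arrays in each of these groups. Among the members, vehicle cultures were lower than N3KO cells in 2 of the 3 genes tested, where 67% of the 20762 genes tested passed and 34.5% were lower: Prm2 by -2.18 (SE 0.32, adjusted p = 0.000873, limma) and Tnp1 by -0.91 (SE 0.27, 0.0196). Prm2 entered that test through the N3KO arrays alone, so the direction of its call follows in part from the detection filter. The call for Tnp1 was lost without N3KO replicate 1 or either vehicle array (adjusted p = 0.0665 to 0.0819). Prm1 differed by 0.16 (SE 0.26, adjusted p = 0.62, limma) but by -1.74 when read by A_52_P533280 (SE 0.28, 0.00133).

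Neither of the 2 members that could be tested in culture passed between RA and vehicle, where 4.06% of the 19895 genes tested did, and neither had an unadjusted p under 0.05. Prm1 differed by -0.02 (SE 0.26, adjusted p = 0.994, limma) and Tnp1 by 0.05 (SE 0.27, adjusted p = 0.98). Prm2, Prm3 and Tnp2 were not well above background on both arrays of either culture group and were not tested.

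Ordered by level over all 17 groups, the tubules, testes and sorted WT cells came first and the N3KO and cultured cells last for each member. Whole testes led for Tnp1, Prm1 and Prm2, and the dnRARa tubules of IX-XII led for Tnp2 and Prm3. Of 16 pairs of neighbours in that order, arrays overlapped in 10 for Tnp1, 8 for Tnp2, 11 for Prm1, 11 for Prm2 and 8 for Prm3, and the groups of those pairs are not ordered beyond their spread. The largest gap fell between the lowest tubule or sorted WT group and the rest, from 6.87 for Prm3 to 12.12 for Prm2.

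Across the 12 tubule group means, Tnp2 correlated with Tnp1 at 0.893 and with Prm1 at 0.888, and Prm1 with Tnp1 at 0.852. Prm2 correlated with the others at -0.223 to 0.226. These values describe means that share arrays, scaling and, in the untreated arm, slides. The courses most like that of Tnp2, among 10593 genes with a symbol that were detected on all 24 arrays and saturated on none, were those of Odf3b (r = 0.9808), H2al2a (0.9771) and Arhgef6 (0.9762). For Tnp1 the nearest were Ccsap (0.9097) and Mettl26 (0.9078), for Prm1 Paqr5 (0.9442) and Klk1b9 (0.9399), for Prm2 Fabp9 (0.9003) and Gstm5 (0.8951), and for Prm3 Zfpl1 (0.9718).

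Over all 17 groups, which add the N3KO and cultured cells, Tnp1, Prm1 and Prm2 each had a member among their 5 nearest genes, and Tnp2 and Prm3 had none. Tnp1 and Prm1 correlated at 0.9962 and each had the other as its nearest gene, out of 14681 candidates. Every pair of members reached 0.965 to 0.996 here. Prm2 and Tnp1 correlated at 0.993, but at -0.223 over the 12 tubule group means. Because the N3KO and cultured cells lie far below the rest, such values say little about likeness among the tubules. Smcp, a protein of the sperm mitochondrial sheath, came nearest to Prm2 (0.9953), Tex37 to Tnp2 (0.9953) and Cby2 to Prm3 (0.9971).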

How the data were processed

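Each array measured 1 Cy3-labelled RNA. The deposited values are spot intensity, which the authors extracted with Agilent Feature Extraction (9.5.3.1 per the file headers, 9.5 per the submitters' processing notes); it subtracts background and detrends each array. The deposited other columns are 0 or 1 marks (well above background, saturated, outlier). The deposited series values, also intensity, equal the processed signal. Of 43379 non-control spots, those marked as outliers were dropped (32 to 274 an array) and spots of a probe averaged, giving 41174 probes, named by accession through RefSeq. For 186 probes, that of Prm3 among them, only the earlier design release gives an accession.

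From each log2 processed signal the 75th percentile of its array was subtracted. A gene entered a test when both arrays of any group compared were well above background; folds against a group with no such array, or a saturated one, are bounds. The limma package (3.58.1; R 4.3.3, data.table version 1.17.8) fitted the models (figures with matplotlib 3.10.9 in Python 3.11.15), 1 for the 24 tubule arrays and 1 for the other 10, with two-sided tests and Benjamini-Hochberg adjustment over all genes of a comparison. The fits were tested on simulated data with independent noise on each array. Those data cannot show how deviations shared within a slide or replicate number affect the error rate. With 2 arrays a group, their number limits the precision.

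The members and lists were chosen with earlier results of these data known. Replicate numbers deviated together (r over 0.1) in every pair of groups within the untreated arm (r = 0.286 to 0.728) and within the dnRARa arm (0.34 to 0.684). They did so in 5 of 6 pairs of the Venus arm (0.018 to 0.462), in 9 of 16 between Venus and dnRARa, and in 1 of 10 among testis and Sertoli cell groups. So did 12 of 16 pairs between untreated and Venus and 7 of 16 between untreated and dnRARa, arms that shared no slide or scan day. Such a count alone does not show that samples were paired. In the injected arms the number is also the slide and scan day. The replicate number was taken as pairing samples only within the untreated and dnRARa arms, where every pair deviated together. The main fits held no replicate block, and such blocks entered only among the alternatives. The named genes are the 5 members, up to 4 genes of a list with the smallest adjusted p, and the genes most like a member by Pearson's r; genes outside this rule, such as Myh11, were named after their values were seen. Alternatives were other scalings, normexp correction of the median signal with offset 50, detection filters, probe choices, model scope, an intensity trend, blocks by replicate, slide and scan day, the series table, and leaving out each array or 1 slide.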

Additional observations from a re-analysis of the deposited data

Results flagged for a closer look

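The dnRARa difference of Tnp2 is listed here because it varied with stage. The test of the difference between stages itself gave an adjusted p of 0.0317 (limma F-test of the interaction, Benjamini-Hochberg), with differences of -0.35 in I-III, -2.60 in IV-VI, 0.29 in VII-VIII and 0.21 in IX-XII. Both pairs of arrays with the same replicate number were lower with dnRARa in IV-VI, by -2.77 and -2.42. The call was lost with the replicate number, which is also the slide, as a block within each arm (adjusted p = 0.0537, limma) and without any of 12 arrays (0.05 to 0.163).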

How the results depend on the processing

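Each call below counts the members past an adjusted p of 0.05. The 3 Prm1 probes gave the reversals: -1.985 (mean of detected probes) and -1.737 (A_52_P533280) for vehicle against N3KO, 0.245 (A_52_P533280, the probe saturated on no array) and 0.109 (A_52_P533287) for dnRARa at IV-VI, and -0.452 (A_52_P533287) for Venus against untreated. The dnRARa average over stages called 3 members with quantile normalization and 0 with normexp, 1 model for all arrays, slide as a random block, or without slide 10. Its interaction called 3 with quantile normalization or an intensity trend, 2 with 1 model, only the groups compared or slide as a random block, and 0 with normexp or without slide 10. Only the groups compared gave 1 for untreated and 3 for Venus stages. Vehicle against N3KO gave 1 with median scaling, normexp, an unsaturated probe or detection on every array, a filter that left 2 members and so 2 calls in each comparison with sorted WT cells. The replicate block over the 24 tubule arrays changed no count (Tnp2 at IV-VI -2.596, adjusted p = 0.00582, limma); as scan day in the injected arms it gave 2 for Venus stages, and within each arm 0 for the interaction (Tnp2 adjusted p = 0.0537, limma). The dnRARa against Venus call at IV-VI counted 3, and 0 to 3 over alternatives. Leaving out 1 array gave 0 to 1 for the dnRARa average, 0 to 2 for its interaction, 3 to 4 for untreated and for dnRARa stages, 1 for Venus stages, 3 for Venus against untreated, 5 for each comparison of sorted WT cells, 1 to 3 for vehicle against N3KO and 0 for RA. Over all genes the background moved too. Only the groups compared gave 6374 calls in place of 12721 for untreated stages, 3880 in place of 2570 for the dnRARa average, 397 in place of 122 for the interaction, 3918 in place of 9628 for N3KO against WT and 5188 in place of 808 for RA. Normexp gave 7556 in place of 12136 for Venus stages, 7885 in place of 12266 for dnRARa stages, 587 for the dnRARa average, 18 for the interaction, 5743 for N3KO against WT, 10804 in place of 16322 for vehicle against WT and 269 for RA. The dnRARa average called 1616 genes with detection on every array, 1577 with slide as a random block, 5170 with the scan-day block and 747 without slide 10, and the interaction 184 with 1 model, 349 with an intensity trend, 459 with the scan-day block, 237 with the arm block and 27 without slide 10. Without slide 10 the dnRARa stages called 7205, with 1 model RA called 1288, with median scaling N3KO against WT called 14787, and with no detection filter Venus against untreated called 23693 (15449 otherwise) and vehicle against N3KO 20943 (13908 otherwise). The lower share of calls at IV-VI was 55.1%, and 65.8% with median scaling and 71.4% with normexp. For the dnRARa average it was 31.5%, and 45.3%, 44.8% and 43.1% with median scaling, normexp and quantile normalization. For N3KO against WT it was 48.6%, and 23.5% and 35.8% with median scaling and quantile normalization; for vehicle against WT 58%, and 34.1% and 46.7%; for vehicle against N3KO 51.5%, and 37.9% with median scaling; for Venus against untreated 45.8%, and 69.9% with normexp. With median scaling the median over all genes went from 0.06 to 0.63 for N3KO against WT and from -0.23 to 0.69 for vehicle against WT. Of 2107 values of single members, left-out arrays aside, 1935 kept direction and side of the threshold. The scan-day and arm blocks, leaving out slide 10 and the single Prm1 probes were chosen after seeing the data. For the testis and Sertoli arrays a random slide block gave a correlation of 0. Each of those groups lay on 1 slide, so that block could not show a slide effect there, and it was not used. Saturation and low signal limit Tnp1 in testes and Tnp2, Prm2 and Prm3 in culture.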
